A study of Mus musculus with 6 samples.

Results

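Interferon-stimulated antiviral genes are the genes that cells switch on when type I interferon reaches its receptor. A list of 60 genes under this name was followed here in Raw264.7 cells, an established line of mouse macrophages, on 2 titanium surfaces. It also holds Ifnb1, the gene of interferon beta, and Ifnar1 and Ifnar2, the genes of the receptor chains. The members were the rows of the count table whose gene symbol stood in the list: 58 of the 60 had a row among 16171, and 54 had enough counts to be tested among 11480 tested genes. Mx1 and Mx2 were not analysed here.

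THCaP is titanium carrying a biomimetic coating of calcium phosphate nanowires, and TH, the control surface, is titanium on which alkaline heat treatment has grown titanate nanowires. There were 3 RNA-seq libraries from cells on THCaP and 3 from cells on TH, all labelled wild type. On both surfaces LPS (lipopolysaccharide of the outer bacterial membrane, a strong stimulus of macrophages) was given at 1 µg/mL for 2 h, after 12 h of attachment and before 1 d of further culture. The comparison asked how the surface coating changes the state of the LPS-stimulated macrophage, and no library without LPS was part of it.

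LPS is sensed by TLR4, whose adaptor TRIF leads to activation of IRF3 and to secretion of interferon beta. Secreted interferon binds the IFNAR1 and IFNAR2 chains on the same and neighbouring cells, and the kinases JAK1 and TYK2 on these chains pass the signal to ISGF3, a transcription factor complex that includes STAT2 and IRF9. ISGF3 binds a promoter element called the interferon-stimulated response element (ISRE) and turns on genes whose products sense viral nucleic acid, degrade or mark it, block viral entry and exit, and tune the signal itself.

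Library totals ran from 28000099 to 29453473 counts on THCaP and from 28198285 to 30317108 counts on TH. Levels are given as CPM, the counts of a gene scaled by the library's TMM-adjusted total. A count of 0 allows up to 3 counts, or at most 0.107 CPM in any library, by counting error only. All 12 macrophage markers passed the filter on low counts, and their summed level was 4067 to 4284 CPM on THCaP and 3813 to 4572 CPM on TH. Lyz2, the lysozyme of macrophages, rose (log2 fold change 0.63, SE 0.16, adjusted p = 0.0223 by edgeR, and up to 0.0904 when THCaP replicate 1 or either of TH replicates 2 and 3 was left out), and the other 11 did not pass. Some of them leaned in either direction. Csf1r lay higher and Cd14 and Cd68 lower in every THCaP library (log2 fold changes 0.31, −0.35 and −0.23, edgeR adjusted p = 0.0504, 0.0501 and 0.0643). Fcgr1 leaned higher with overlap (0.60, edgeR adjusted p = 0.0674). Of 13 alternatives, Csf1r stayed uncalled in 6, Cd14 in 7, Fcgr1 in 9 and Cd68 in 12. Markers of T and NK cells (3 of 9 with a row) summed to at most 0.0700 CPM on THCaP and 0.108 CPM on TH, and markers of neutrophils (6 of 7 with a row) to at most 0.105 CPM on THCaP and 0.0360 CPM on TH. Markers of conventional dendritic cells summed to 4.25 to 6.20 CPM on THCaP, against 8.29 to 8.85 CPM on TH. The 6 genes of that list include Zbtb46, which fell on THCaP (log2 fold change −0.82, SE 0.18, adjusted p = 0.0134 by edgeR, and up to 0.0581 without TH replicate 3 or THCaP replicate 1), and 5 of the 6 stayed under 1 CPM in every library. Markers of plasmacytoid dendritic cells summed to 268 to 299 CPM on THCaP, against 366 to 403 CPM on TH, of which Bst2, itself a member, and Tcf4 made up nearly all. Of the genes of that list that were tested, Bst2 alone passed. Tcf4, Runx2 and Pacsin1 had log2 fold changes of −0.19, −0.66 and −0.24. Siglech leaned the other way, averaging 4.42 CPM on THCaP and 2.25 CPM on TH (log2 fold change 0.96, SE 0.36, adjusted p = 0.0773 by edgeR). Markers of B cells summed to 0.784 to 1.24 CPM on THCaP, against 1.27 to 1.54 CPM on TH, and those of endothelial and epithelial cells to 2.27 to 3.99 CPM on THCaP, against 4.58 to 5.61 CPM on TH. The part of these differences in the results for the antiviral genes was not tested. In bulk RNA, fewer cells that express a gene and less of its RNA per cell cannot be told apart.

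The ISRE core, searched on both strands as GAAA, then 2 bases of any kind, then GAAA, with overlapping matches counted, was a sequence that many members shared. In RefSeq windows of 250 bases before to 50 bases after each annotated start (GRCm38.p6), it occurred in 38.2% of 55 member windows, against 3.44% of all 32851 windows and 3.08% of the 11783 windows of tested genes. By gene, 20 of the 46 members with a window held it. The stretches below are shown because they carry the core upstream of the 6 genes with the largest decreases among members with a core before the start, written 5′ to 3′ along the gene's own strand, which is the minus strand in each case. Capitals mark the core or, where it reads TTTC first, its reverse complement. A match is a description of the letters and not evidence of binding.
Rsad2, chr12:26456533-26456602: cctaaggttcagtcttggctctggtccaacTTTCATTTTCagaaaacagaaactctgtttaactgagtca
Isg15, chr4:156200845-156200926: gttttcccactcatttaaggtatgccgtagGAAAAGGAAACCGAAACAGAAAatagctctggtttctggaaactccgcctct
Ifi207, chr1:173741811-173741880: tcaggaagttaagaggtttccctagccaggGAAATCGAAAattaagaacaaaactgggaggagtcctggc
Oas3, chr5:120777695-120777764: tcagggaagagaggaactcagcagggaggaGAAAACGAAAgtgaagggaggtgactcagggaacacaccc
Bst2, chr8:71537557-71537632: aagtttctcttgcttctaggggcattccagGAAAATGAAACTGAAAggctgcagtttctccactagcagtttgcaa
Lgals9, chr11:78984947-78985009: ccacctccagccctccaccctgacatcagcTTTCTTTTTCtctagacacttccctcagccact
The Isg15 stretch held 3 overlapping cores and the Bst2 stretch 2, whereas the other 4 held 1 each. A further pair is shown for contrast and was picked after the values were seen, as members with the core that did not pass the test.
Ifitm2, chr7:140955988-140956037: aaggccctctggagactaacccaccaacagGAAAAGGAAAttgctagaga
Oas1a, chr5:120907526-120907575: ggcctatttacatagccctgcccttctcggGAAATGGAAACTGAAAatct

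The members that passed the test were all lower on THCaP. Of the 54 tested, 31 fell on THCaP, none rose and 23 did not pass the test (edgeR quasi-likelihood test, Benjamini-Hochberg adjusted p under 0.05 over all 11480 genes). At an unadjusted edgeR p under 0.05, 33 were lower and 0 higher, and DESeq2 and limma-voom also called 0 higher. The share that fell was 57.4%, against 12.0% of all tested genes lower and 11.6% higher. The list was chosen with earlier results of these data known, so this contrast is a description and not an independent test. Log2 fold changes, always THCaP over TH, had a median of −0.51 over the members and 0.0064 over all tested genes. They ran from −2.03 for Rsad2 to 0.36 for Phf11b, with 45 below 0 and 9 above. All 3 THCaP libraries lay below all 3 TH libraries for 31 members, or 57.4%, against 21.3% of all tested genes, and lay above them for 1 member, Trim14, against 22.1%. The members that fell and the members that separated were not wholly the same, since Trim30a fell with groups that touched and Ifi204 separated without passing the test. Zbp1 passed the filter on low counts mainly through TH, with all 3 TH libraries and 1 THCaP library over the cutoff, and without it 30 of 53 members fell.

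The decrease was at least 2-fold for 10 members, against 1.25% of all tested genes that fell so far. Without Zbp1 there were 9, namely Rsad2, Ifi44l, Ifi44, Isg15, Oasl2, Usp18, Rtp4, Isg20 and Ifi207. The median log2 fold change was −0.77 over the 31 members that fell, and −0.11 (range −0.40 to 0.36) over the 23 that did not pass.

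Leaving out 1 library moved the number of members lower between 22 (without TH replicate 2) and 31 (without THCaP replicate 2 or 3). The share of all tested genes lower ran from 4.01% without THCaP replicate 1 to 17.4% without THCaP replicate 3. Of the 31 members, 22 fell under every alternative tried and 9 lost their call under at least 1, as given beside each below.

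**Figure D1:**
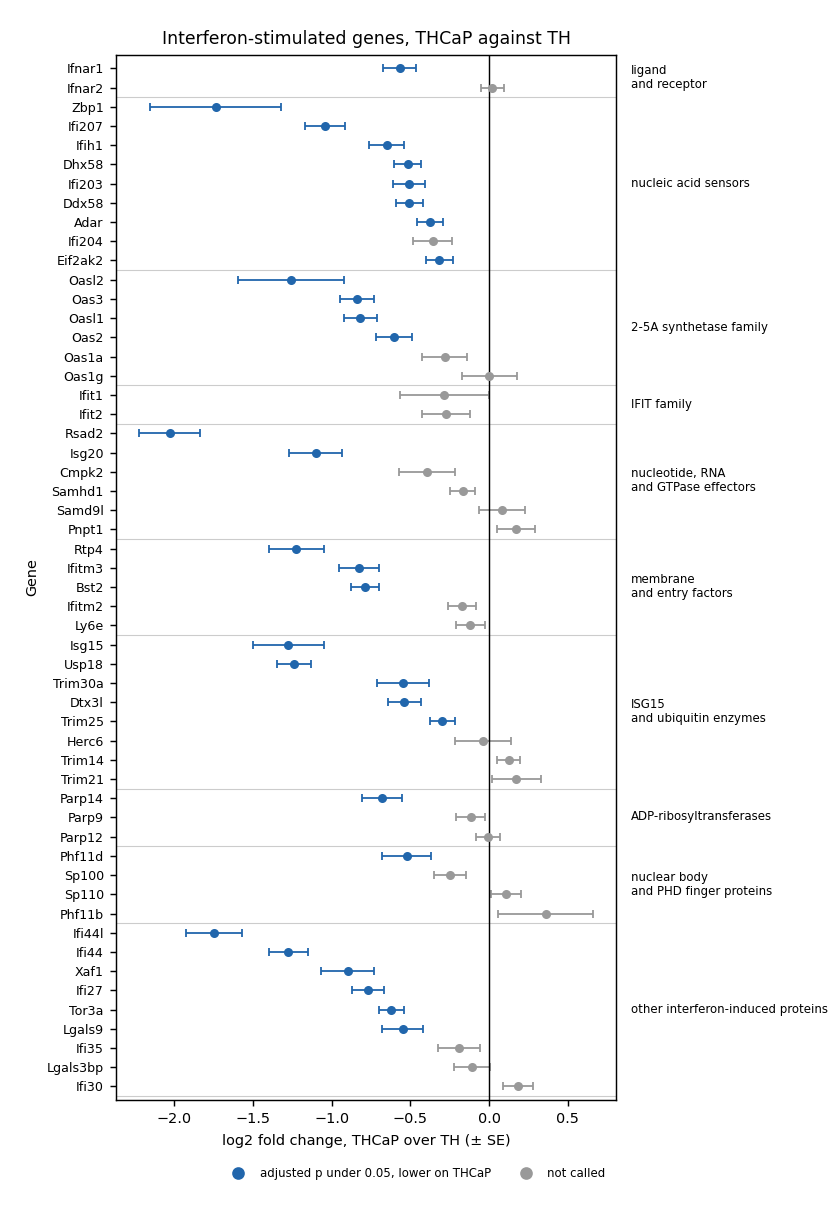
Log2 fold change (THCaP over TH, x axis) of each of the 54 tested members, grouped by role down the y axis, with bars of ± 1 SE from the edgeR fit. Members that passed the test all lie left of 0, the farthest being Rsad2 at −2.03, and the members that did not pass lie between −0.40 and 0.36.

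Of the interferon itself there was next to no transcript at the time of collection. Ifnb1, which encodes interferon beta, had 0, 0 and 0 counts in the THCaP libraries, against 0, 0 and 1 counts in the TH libraries, so it was not tested and no difference was detectable at this depth. The receptor chains were both well expressed. Ifnar1, the chain that binds TYK2 (chromosome 16, 91485238 to 91507441 on GRCm38, GENCODE vM21), had 75.9, 67.3 and 80.6 CPM in the THCaP libraries, against 95.8, 117 and 119 CPM in the TH libraries. Every THCaP library was below every TH library, and Ifnar1 fell 1.48-fold (log2 fold change −0.57, SE 0.11, adjusted p = 0.00854 by edgeR). Ifnar2, the chain that binds JAK1 and lies on the same chromosome at 91372783 to 91405589, had 101, 101 and 107 CPM in the THCaP libraries, against 104, 97.9 and 102 CPM in the TH libraries. Its groups overlapped, and the log2 fold change was 0.021 with a 95% interval of −0.14 to 0.18 (adjusted p = 0.856 by edgeR). The ratio of Ifnar1 to Ifnar2 counts was 0.752, 0.666 and 0.755 in the THCaP libraries, against 0.920, 1.19 and 1.17 in the TH libraries.

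Sensors of viral RNA and DNA mostly fell. Of 9 tested, 8 fell (88.9%, against 12.0% of all tested genes lower), with a median log2 fold change of −0.51. All 9 had every THCaP library below every TH library, as did 21.3% of all tested genes. Without Zbp1, which passed the filter on low counts mainly through TH, 7 of 8 fell, with the same rounded median. Zbp1, which senses left-handed nucleic acid and can trigger necroptosis, was the sensor with the fewest counts, 6, 11 and 4 counts in the THCaP libraries, against 23, 27 and 19 counts in the TH libraries. It fell 3.33-fold (log2 fold change −1.74, SE 0.42, adjusted p = 0.0196 by edgeR), and its adjusted p was 0.0763 and 0.0528 once TH replicates 2 and 3 were removed, and 0.0767 once THCaP replicate 1 was. Ifi207, a member of the mouse PYHIN family of DNA-binding proteins (chromosome 1, 173723427 to 173741747), had 57.0, 44.8 and 60.3 CPM in the THCaP libraries, against 106, 126 and 102 CPM in the TH libraries. No library of one surface reached those of the other, and Ifi207 fell 2.06-fold (log2 fold change −1.04, SE 0.13, adjusted p = 0.00246 by edgeR).

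The 3 RIG-I-like receptors, helicases that detect viral RNA in the cytosol, fell to a like extent. Ifih1, encoding MDA5, the sensor of long double-stranded RNA, had 18.7, 21.4 and 20.0 CPM in the THCaP libraries, against 29.0, 36.2 and 29.2 CPM in the TH libraries (log2 fold change −0.65, SE 0.11, adjusted p = 0.00743 by edgeR). Dhx58, encoding LGP2, the regulator of the other helicases, had 42.5, 40.1 and 44.1 CPM in the THCaP libraries, against 61.4, 64.7 and 55.3 CPM in the TH libraries (log2 fold change −0.52, SE 0.09, adjusted p = 0.00698 by edgeR). Ddx58, encoding RIG-I, the sensor of RNA with a 5′ triphosphate, averaged 58.7 ± 0.821 CPM on THCaP and 83.4 ± 7.53 CPM on TH (SD over 3 libraries, as for all means here; log2 fold change −0.51, SE 0.09, adjusted p = 0.00671 by edgeR). The 3 THCaP libraries of Ddx58 lay within 57.9 to 59.5 CPM, a narrower spread than the 77.9 to 92.0 CPM of the TH libraries.

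Adar, the enzyme that edits adenosine in double-stranded RNA and so keeps self RNA from being sensed, was the most expressed sensor by mean FPKM over both surfaces. It had 162, 159.6 and 156 CPM in the THCaP libraries, against 193, 224 and 201 CPM in the TH libraries, with no overlap (log2 fold change −0.37, SE 0.08, adjusted p = 0.0144 by edgeR). Eif2ak2, the kinase PKR that halts translation on double-stranded RNA, averaged 80.0 ± 5.58 CPM on THCaP and 99.6 ± 5.48 CPM on TH (log2 fold change −0.32, SE 0.08, adjusted p = 0.0273 by edgeR). Both decreases were small and passed less firmly than those of the helicases: with TH replicate 2, TH replicate 3 or THCaP replicate 1 removed in turn, the edgeR adjusted p was 0.0693, 0.0548 and 0.0659 for Adar and 0.112, 0.0787 and 0.0865 for Eif2ak2. Ifi203, another PYHIN gene, averaged 91.2 ± 8.87 CPM on THCaP and 129.8 ± 12.7 CPM on TH (log2 fold change −0.51, SE 0.10, adjusted p = 0.0107 by edgeR; adjusted p = 0.051 by edgeR without TH replicate 2). Exons of Ifi203 overlap those of its relative Mndal in the annotation, so their reads may not be separable. Ifi204, a PYHIN protein linked to the STING response to DNA, had 10.2, 10.3 and 11.2 CPM in the THCaP libraries, against 15.6, 12.8 and 12.3 CPM in the TH libraries. These groups did not overlap either, yet Ifi204 did not pass the test (log2 fold change −0.36, SE 0.13, adjusted p = 0.0640 by edgeR, 95% interval −0.64 to −0.076), and it did so without THCaP replicate 3 (adjusted p = 0.0489) and in DESeq2 (adjusted p = 0.0457).

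**Figure D2:**
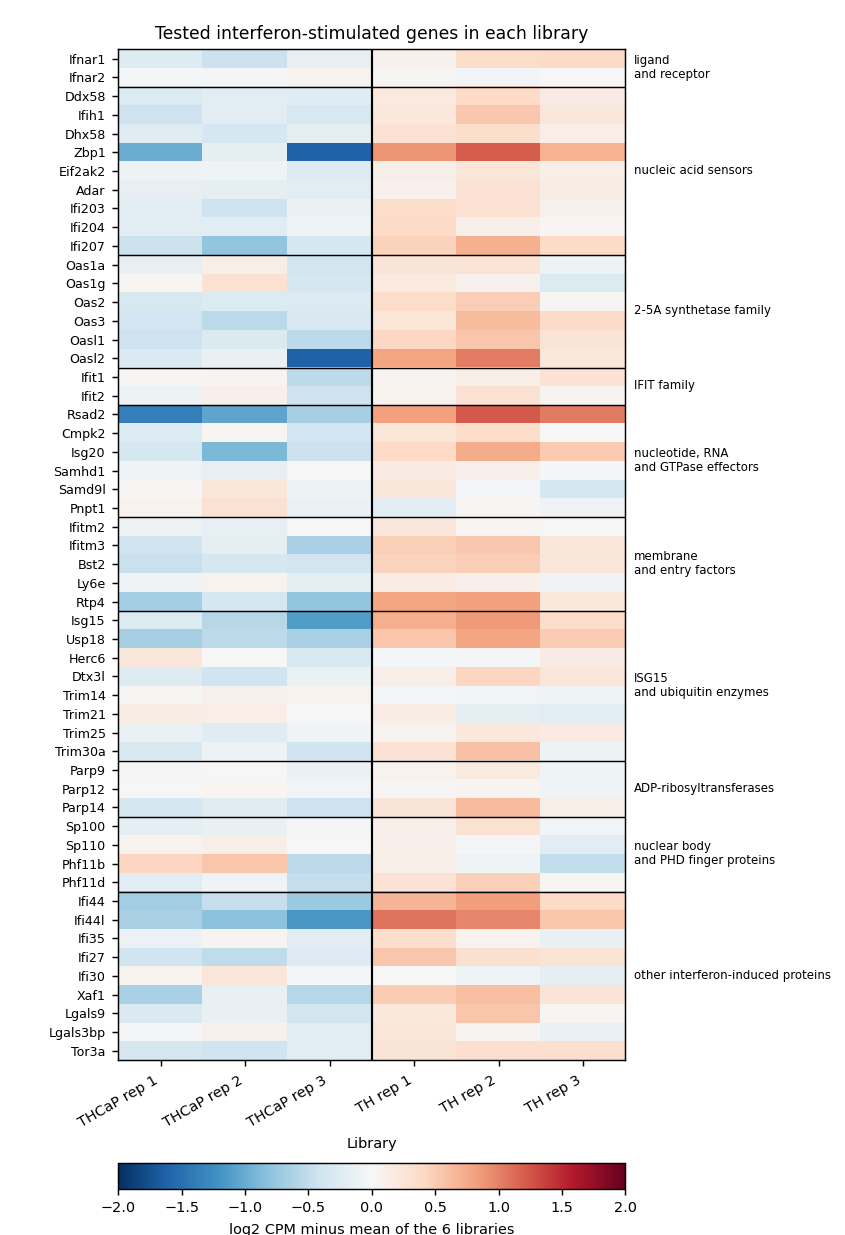
Each member's log2 CPM in each library relative to its mean over the 6 libraries (colour, log2 units), with members in rows by role and the 3 THCaP libraries left of the 3 TH libraries. Rows of members that fell are lower in the THCaP columns than in the TH columns, except where THCaP replicate 2 and TH replicate 3 of Trim30a touch.

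The oligoadenylate synthetases make the 2′-5′ linked adenylate that activates RNase L, which then cuts viral and cellular RNA. Of 6 members of this family, 4 fell (66.7%, against 12.0% of all tested genes lower) and 2 did not pass. Their median log2 fold change was −0.71. Oas3, the long form with repeated synthetase units (chromosome 5, 120753098 to 120777661), was the highest of the family with 27.0 ± 2.07 FPKM on THCaP and 46.6 ± 6.44 FPKM on TH. In CPM it had 133, 119.8 and 139 CPM in the THCaP libraries, against 206, 269 and 226 CPM in the TH libraries. The gap between the lowest TH and the highest THCaP library was wider than the spread within either surface, and Oas3 fell 1.79-fold (log2 fold change −0.84, SE 0.11, adjusted p = 0.00325 by edgeR). Oas2, with a pair of such units, had 39.3, 40.6 and 40.7 CPM in the THCaP libraries, against 63.6, 69.2 and 50.2 CPM in the TH libraries (log2 fold change −0.60, SE 0.12, adjusted p = 0.00913 by edgeR).

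Oasl1 and Oasl2 are relatives whose proteins carry ubiquitin-like domains. Oasl1, which in mouse represses translation of the IRF7 messenger, had 26.5, 28.9 and 24.4 CPM in the THCaP libraries, against 47.0, 51.8 and 42.1 CPM in the TH libraries (log2 fold change −0.82, SE 0.11, adjusted p = 0.00315 by edgeR). Oasl2 had far fewer counts, with 3.85, 4.25 and 1.53 CPM in the THCaP libraries, against 8.12, 9.51 and 5.44 CPM in the TH libraries. Its groups did not overlap (log2 fold change −1.26, SE 0.34, adjusted p = 0.0278 by edgeR), but THCaP replicate 3 was well under the other THCaP libraries, and the adjusted p was 0.0726, 0.10 and 0.0575 without TH replicate 1, TH replicate 2 and THCaP replicate 1.

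The single-unit genes Oas1a and Oas1g lie in the same cluster on chromosome 5 as Oas3 and Oas2, with other Oas1 genes between. Oas1a had 29.7, 36.1 and 25.4 CPM in the THCaP libraries, against 39.8, 40.1 and 31.1 CPM in the TH libraries. The groups overlapped (log2 fold change −0.28, SE 0.14, adjusted p = 0.173 by edgeR, 95% interval −0.60 to 0.039), and Oas1a passed only without THCaP replicate 2 (log2 fold change −0.42, adjusted p = 0.0479). Oas1g had 16.6, 19.9 and 12.7 CPM in the THCaP libraries, against 18.5, 17.2 and 13.4 CPM in the TH libraries. Libraries of the surfaces were interleaved, with a log2 fold change of 0.0018 and a 95% interval of −0.39 to 0.39 (edgeR adjusted p = 0.996). Oas1a and Oas1g are close copies of each other, and how the counting treated reads that fit both is not given in the sources used here.

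IFIT proteins bind viral RNA whose cap marks it as foreign. Of 4 members, 2 could be tested and neither passed the test. Ifit1 had 0.945, 0.970 and 0.648 CPM in the THCaP libraries, against 0.969, 1.01 and 1.15 CPM in the TH libraries (log2 fold change −0.28, SE 0.29, adjusted p = 0.488 by edgeR, 95% interval −0.92 to 0.35). Ifit2 had 10.2, 11.7 and 8.21 CPM in the THCaP libraries, against 11.5, 13.6 and 11.4 CPM in the TH libraries (log2 fold change −0.27, SE 0.15, adjusted p = 0.208 by edgeR, 95% interval −0.61 to 0.066). The surfaces overlapped in both genes. Ifit3, which stabilises IFIT1 on RNA in human cells, had 12, 10 and 5 counts in the THCaP libraries, against 6, 7 and 17 counts in the TH libraries, and its near-copy Ifit3b had 3, 1 and 0 counts in the THCaP libraries, against 1, 0 and 0 counts in the TH libraries. Counts of this size do not separate the surfaces, and reads shared by Ifit3 and Ifit3b may have been lost to both.

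The effectors that act on nucleotides and RNA held the largest decrease of the list. Rsad2 encodes viperin, which converts CTP into a chain-terminating analogue (chromosome 12, 26442746 to 26456452). It had 2.45, 3.04 and 3.99 CPM in the THCaP libraries, against 11.1, 14.8 and 12.9 CPM in the TH libraries. The highest THCaP library was under the lowest TH library by more than the spread on either surface, and Rsad2 fell 4.08-fold (log2 fold change −2.03, SE 0.19, adjusted p = 0.000981 by edgeR). Cmpk2, the kinase that supplies viperin with its substrate, is the neighbour of Rsad2, with 12751 bases between the genes and the opposite orientation. It had 4.24, 5.25 and 3.92 CPM in the THCaP libraries, against 6.05, 6.56 and 5.05 CPM in the TH libraries. Its groups overlapped slightly, and it did not pass (log2 fold change −0.40, SE 0.18, adjusted p = 0.129 by edgeR, 95% interval −0.79 to 0.0014).

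Isg20, an exonuclease that degrades single-stranded RNA, had 7.53, 5.15 and 7.12 CPM in the THCaP libraries, against 12.6, 16.1 and 13.8 CPM in the TH libraries. The surfaces were apart, and Isg20 fell 2.15-fold (log2 fold change −1.10, SE 0.17, adjusted p = 0.00462 by edgeR). Samhd1, which depletes the nucleotides that reverse transcription needs, was the highest of these effectors with 38.5 ± 2.06 FPKM on THCaP and 41.7 ± 2.85 FPKM on TH. In CPM it had 178, 168 and 187 CPM on THCaP and 210.3, 203 and 186 CPM on TH, with overlap (log2 fold change −0.17, SE 0.08, adjusted p = 0.157 by edgeR, 95% interval −0.35 to 0.014). Pnpt1, the mitochondrial polynucleotide phosphorylase, had 53.1, 62.4 and 45.9 CPM on THCaP and 43.7, 51.7 and 48.0 CPM on TH and likewise overlapped (log2 fold change 0.17, SE 0.12, adjusted p = 0.313 by edgeR). Samd9l, a restrictor of poxviruses, averaged 29.4 ± 3.40 CPM on THCaP and 27.7 ± 5.44 CPM on TH (log2 fold change 0.082, SE 0.15, adjusted p = 0.707 by edgeR, 95% interval −0.24 to 0.41). Altogether 2 of 6 tested effectors fell (33.3%, against 12.0% of all tested genes lower). The 4 that did not pass lay between −0.40 and 0.17 on the log2 scale.

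Membrane and entry factors included some of the most abundant members. Of 5 tested, 3 fell and 2 did not pass, with a median log2 fold change of −0.79. Bst2, or tetherin, holds budding virions at the cell surface. It had 105, 111 and 109.6 CPM in the THCaP libraries, against 194, 201 and 168 CPM in the TH libraries. No values overlapped, the 3 THCaP libraries were within 105 to 111 CPM, and Bst2 fell 1.73-fold (log2 fold change −0.79, SE 0.09, adjusted p = 0.00173 by edgeR). Rtp4, a chaperone of receptor transport that also curbs flaviviruses, had 11.6, 14.4 and 10.7 CPM in the THCaP libraries, against 31.8, 32.4 and 21.3 CPM in the TH libraries (log2 fold change −1.22, SE 0.18, adjusted p = 0.00422 by edgeR). Its TH replicate 3 was lower than the other TH libraries and still above every THCaP library.

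Ifitm3 and Ifitm2 encode small membrane proteins that hinder fusion of virions in endosomes, and they are close relatives in one cluster on chromosome 7. Ifitm3 (141009586 to 141010770) had 92.4, 106 and 78.0 CPM in the THCaP libraries, against 169.9, 178 and 143 CPM in the TH libraries. All THCaP libraries were below all TH libraries, and Ifitm3 fell 1.77-fold (log2 fold change −0.83, SE 0.12, adjusted p = 0.00462 by edgeR). Ifitm2 (140954837 to 140955987) had 176, 167 and 188 CPM in the THCaP libraries, against 219, 192 and 188 CPM in the TH libraries. THCaP replicate 3 reached TH replicate 3, and Ifitm2 did not pass (log2 fold change −0.17, SE 0.09, adjusted p = 0.174 by edgeR, 95% interval −0.37 to 0.024). Reads shared by these copies could move the 2 values towards each other or be lost to both. Ly6e, a surface protein that blocks coronavirus fusion, averaged 253 ± 21.8 CPM on THCaP and 275 ± 21.8 CPM on TH (log2 fold change −0.12, SE 0.09, adjusted p = 0.373 by edgeR, 95% interval −0.33 to 0.09). Ms4a4c, a membrane-spanning protein, had 0, 0 and 0 counts in the THCaP libraries, against 0, 0 and 1 counts in the TH libraries and was not tested.

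ISG15 is a ubiquitin-like protein that is joined to newly made proteins, and USP18 removes it and also binds IFNAR2 to damp the signal. Isg15 (chromosome 4, 156199424 to 156200818) had 3.96, 3.24 and 2.22 CPM in the THCaP libraries, against 7.95, 8.68 and 6.16 CPM in the TH libraries. The surfaces were apart, and Isg15 fell 2.42-fold (log2 fold change −1.28, SE 0.23, adjusted p = 0.00753 by edgeR). Usp18 (chromosome 6, 121245906 to 121270917) had 13.1, 14.4 and 13.3 CPM in the THCaP libraries, against 30.6, 36.2 and 29.6 CPM in the TH libraries. Its THCaP libraries were nearly equal and all under each TH library, and Usp18 fell 2.36-fold (log2 fold change −1.24, SE 0.11, adjusted p = 0.000735 by edgeR). No other member had a smaller adjusted p.

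Of the other members grouped here, ubiquitin ligases and the adaptor Trim14, 3 fell and 3 did not pass. With Isg15 and Usp18, 5 of 8 fell (62.5%, against 12.0% of all tested genes lower). Dtx3l, which works as a complex with PARP9, had 58.5, 53.0 and 63.9 CPM in the THCaP libraries, against 76.9, 94.3 and 83.4 CPM in the TH libraries. These did not overlap (log2 fold change −0.54, SE 0.10, adjusted p = 0.00890 by edgeR). Trim25, the ligase known for its part in RIG-I activation, was the most expressed of them with 54.5 ± 3.50 FPKM on THCaP and 64.5 ± 3.17 FPKM on TH. In CPM it had 303, 279 and 316 CPM on THCaP and 347, 383 and 373 CPM on TH, without overlap (log2 fold change −0.30, SE 0.08, adjusted p = 0.0304 by edgeR). The Trim25 call was lost under 5 alternatives, with an adjusted p of 0.117 and 0.115 once TH replicates 2 and 3 were removed, 0.113 and 0.0661 once THCaP replicates 1 and 2 were, and 0.0530 when libraries were scaled by their totals alone.

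Trim30a, a mouse ligase that restrains NF-κB signalling, had 17.4, 20.0 and 16.3 CPM in the THCaP libraries, against 26.3, 32.1 and 20.0 CPM in the TH libraries. THCaP replicate 2 and TH replicate 3 touched (log2 fold change −0.55, SE 0.16, adjusted p = 0.0392 by edgeR), and the adjusted p was 0.0865 and 0.144 once TH replicates 1 and 2 were removed, 0.116 once THCaP replicate 1 was and 0.0516 with library totals. Trim14, an adaptor of MAVS signalling, averaged 48.8 ± 0.937 CPM on THCaP and 44.8 ± 0.858 CPM on TH. It was the member whose THCaP libraries all lay above the TH libraries, and it did not pass (log2 fold change 0.12, SE 0.08, adjusted p = 0.246 by edgeR, 95% interval −0.044 to 0.29). Trim21, the cytosolic antibody receptor, averaged 6.26 ± 0.320 CPM on THCaP and 5.55 ± 0.809 CPM on TH (log2 fold change 0.17, SE 0.16, adjusted p = 0.438 by edgeR). Herc6, the mouse ligase for ISG15, averaged 5.10 ± 0.915 CPM on THCaP and 5.24 ± 0.457 CPM on TH (log2 fold change −0.04, SE 0.18, adjusted p = 0.888 by edgeR, 95% interval −0.44 to 0.36).

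**Figure D3:**
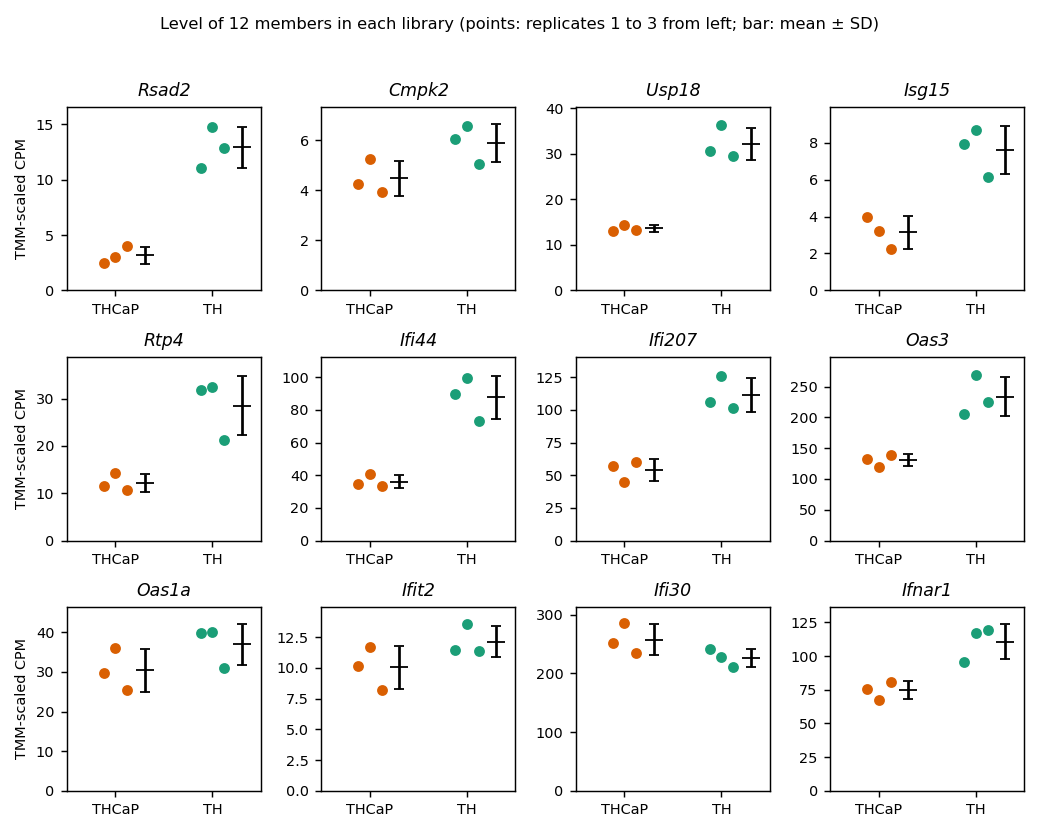
Level in CPM in each library (y axis from 0, TMM-scaled) for 12 members, replicates 1 to 3 as points with THCaP left of TH, and the mean with its SD beside them. The Rsad2 points lie between 2.45 and 3.99 CPM on THCaP and between 11.1 and 14.8 CPM on TH, whereas the Cmpk2, Oas1a, Ifit2 and Ifi30 points of the surfaces overlap.

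The ADP-ribosyltransferases attach ADP-ribose to proteins of the host and of viruses. Parp14, a cofactor of STAT6 that also binds RNA, had 33.5, 36.1 and 32.1 CPM in the THCaP libraries, against 50.8, 65.8 and 46.3 CPM in the TH libraries. The surfaces were apart, and Parp14 fell 1.60-fold (log2 fold change −0.68, SE 0.13, adjusted p = 0.00881 by edgeR). Parp12, which moves to stress granules, had 67.6, 68.8 and 64.7 CPM on THCaP and 68.6, 69.7 and 64.0 CPM on TH. Its surfaces overlapped almost wholly, with a 95% interval of −0.18 to 0.16 (log2 fold change −0.0093, SE 0.08, adjusted p = 0.941 by edgeR). Parp9, the partner of DTX3L, had 49.4, 49.9 and 46.1 CPM on THCaP and 52.7, 57.7 and 47.4 CPM on TH (log2 fold change −0.12, SE 0.09, adjusted p = 0.373 by edgeR, 95% interval −0.33 to 0.089). Parp9 and Dtx3l lie head to head on chromosome 16 with 682 bases in common, and since the strand setting of the counting is not given in the sources used here, reads of that stretch cannot be assigned to one of them.

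Nuclear body proteins and the PHD finger proteins Phf11 gave 1 decrease among 4 (25.0%, against 12.0% of all tested genes lower), a share that rests on 1 gene. Phf11d had 8.96, 10.0 and 7.53 CPM in the THCaP libraries, against 12.8, 14.6 and 10.7 CPM in the TH libraries. No values overlapped (log2 fold change −0.52, SE 0.16, adjusted p = 0.0392 by edgeR), but the call was lost in 6 of 13 alternatives, with adjusted p values of 0.0788, 0.145, 0.0518, 0.111 and 0.0597 without TH replicates 1, 2 and 3 and THCaP replicates 1 and 3, and 0.0525 with library totals. Phf11b, its paralog 6055 bases away, had 3.26, 3.54 and 1.67 CPM in the THCaP libraries, against 2.61, 2.27 and 1.72 CPM in the TH libraries (log2 fold change 0.36, SE 0.30, adjusted p = 0.405 by edgeR, 95% interval −0.32 to 1.03). The direction of Phf11b was opposite and its groups overlapped. Sp100, a defining protein of nuclear bodies, had 50.9, 51.7 and 56.0 CPM on THCaP and 62.0, 71.2 and 55.3 CPM on TH (log2 fold change −0.25, SE 0.10, adjusted p = 0.103 by edgeR). Sp110, its relative, had 88.7, 91.9 and 83.9 CPM on THCaP and 90.7, 82.2 and 72.5 CPM on TH (log2 fold change 0.11, SE 0.09, adjusted p = 0.425 by edgeR). In both Sp genes at least 1 TH library lay within the THCaP values.

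Among the other interferon-induced proteins 6 of 9 fell (66.7%, against 12.0% of all tested genes lower), with a median of −0.62. Ifi44l and Ifi44 are neighbouring paralogs on chromosome 3 whose products have been reported to limit virus growth. Ifi44l (151758737 to 151762892) had 6.58, 5.85 and 4.60 CPM in the THCaP libraries, against 21.9, 20.1 and 15.2 CPM in the TH libraries. Ifi44 (151730922 to 151749960) had 34.4, 40.6 and 33.5 CPM in the THCaP libraries, against 90.0, 99.4 and 73.4 CPM in the TH libraries. In both genes the gap between the surfaces was wider than the spread within either. Ifi44l fell 3.36-fold (log2 fold change −1.75, SE 0.18, adjusted p = 0.00121 by edgeR) and Ifi44 fell 2.42-fold (log2 fold change −1.28, SE 0.12, adjusted p = 0.000992 by edgeR).

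Ifi27, a protein of the mitochondrial and nuclear membranes, had 180.5, 168 and 199 CPM in the THCaP libraries, against 349, 297 and 286 CPM in the TH libraries (log2 fold change −0.77, SE 0.10, adjusted p = 0.00331 by edgeR). Xaf1, which antagonises the inhibitor of apoptosis XIAP, had 5.46, 7.76 and 5.79 CPM in the THCaP libraries, against 12.3, 13.0 and 10.2 CPM in the TH libraries (log2 fold change −0.90, SE 0.17, adjusted p = 0.00835 by edgeR). The surfaces were apart in both. Tor3a, an ATPase of the endoplasmic reticulum, averaged 82.0 ± 5.53 CPM on THCaP and 126 ± 3.94 CPM on TH (log2 fold change −0.62, SE 0.08, adjusted p = 0.00315 by edgeR). Lgals9, the lectin galectin-9, averaged 29.7 ± 2.20 CPM on THCaP and 43.4 ± 8.03 CPM on TH (log2 fold change −0.55, SE 0.13, adjusted p = 0.0189 by edgeR; adjusted p = 0.0664 by edgeR without TH replicate 2 and 0.0703 without THCaP replicate 1). Ifi27, Xaf1 and Tor3a fell under every alternative tried, whereas Lgals9 did not.

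Ifi30, the lysosomal thiol reductase GILT that prepares antigens for presentation, had 252, 286 and 234 CPM in the THCaP libraries, against 242, 228 and 211 CPM in the TH libraries. The groups overlapped and the value leaned the other way (log2 fold change 0.18, SE 0.10, adjusted p = 0.181 by edgeR, 95% interval −0.03 to 0.40). Lgals3bp, a secreted lectin-binding glycoprotein, averaged 134 ± 14.9 CPM on THCaP and 145 ± 19.0 CPM on TH (log2 fold change −0.11, SE 0.12, adjusted p = 0.507 by edgeR). Ifi35, a leucine zipper protein, averaged 23.9 ± 2.34 CPM on THCaP and 27.3 ± 4.80 CPM on TH (log2 fold change −0.19, SE 0.13, adjusted p = 0.320 by edgeR, 95% interval −0.49 to 0.11).

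Levels of different members were compared as the deposited FPKM (fragments per kilobase of gene and per library size). On THCaP the order at the top was Ifi30 (267 ± 26.9 FPKM on THCaP and 227 ± 16.9 FPKM on TH), Ifitm2 (252 ± 15.5 FPKM on THCaP and 275 ± 25.0 FPKM on TH), Ifi27 (177 ± 15.7 FPKM on THCaP and 289.7 ± 33.0 FPKM on TH), Ifitm3 (145 ± 21.9 FPKM on THCaP and 248 ± 29.2 FPKM on TH) and Bst2 (137 ± 3.74 FPKM on THCaP and 228 ± 22.7 FPKM on TH). On TH Ifi27 came first, followed by Ifitm2, Ifitm3, Bst2 and Ifi30. Neighbours in the TH order differed by less than their combined SDs, as did those in the THCaP order except Ifitm2 and Ifi27. At or above 100 FPKM stood 5 members on THCaP and 6 on TH, at or above 10 FPKM 32 on THCaP and 34 on TH, and at or above 1 FPKM 50 on THCaP and 51 on TH. Members that fell at least 2-fold were spread over the order, on TH from rank 12 (Ifi44) and 13 (Ifi207) to rank 48 (Oasl2) and 54 (Zbp1) of 58. Ifi44 averaged 12.9 ± 1.34 FPKM on THCaP and 30.1 ± 4.68 FPKM on TH, whereas Rsad2 averaged 0.850 ± 0.209 FPKM on THCaP and 3.35 ± 0.475 FPKM on TH.

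The members together took 0.345%, 0.347% and 0.342% of all counts in the THCaP libraries, against 0.444%, 0.460% and 0.402% in the TH libraries. The THCaP shares were nearly equal, and TH replicate 3 was the TH library nearest to them. Levels were also taken as log2 relative to each gene's own mean. Over all 54 tested members the medians were −0.24, −0.16 and −0.29 in the THCaP libraries, against 0.25, 0.33 and 0.12 in the TH libraries. Over the 31 members that fell, the medians were −0.35, −0.33 and −0.38 in the THCaP libraries, against 0.37, 0.55 and 0.23 in the TH libraries. The signs over these 31 follow from their choice as lower in the same libraries. TH replicate 2 was the highest TH library for 27 of the 31 and TH replicate 3 the lowest for 22. Over the 23 members that did not pass, the medians were −0.017, 0.069 and −0.13 on THCaP, against 0.11, 0.053 and −0.073 on TH, and THCaP replicate 3 was the lowest THCaP library for 17 of them. Among these 23, TH replicate 1 was the highest TH library for 14 and TH replicate 2 for 7, with TH replicate 3 the lowest for 19. Such counts were not made over all tested genes, and the call that split the members used these same libraries. No difference between the members that fell and those that did not pass is therefore read from them.

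Some neighbours and paralogs within the list did not share a call, and 9 pairs were chosen after their values were seen, so their ratios are given without a test. Counts of Rsad2 per count of Cmpk2 were 0.579, 0.580 and 1.02 in the THCaP libraries, against 1.83, 2.25 and 2.55 in the TH libraries. Counts of Dtx3l per count of Parp9 were 1.18, 1.06 and 1.39 on THCaP, against 1.46, 1.64 and 1.76 on TH. Counts of Oas3 per count of Oas1a were 4.47, 3.32 and 5.46 on THCaP and 5.18, 6.71 and 7.26 on TH. The first 2 of these pairs separated the surfaces and the last overlapped. Counts of Ifi207 per count of Ifi204 were 5.57, 4.35 and 5.40 on THCaP and 6.81, 9.90 and 8.26 on TH. Counts of Ifitm3 per count of Ifitm2 were 0.526, 0.636 and 0.415 on THCaP and 0.775, 0.927 and 0.762 on TH. In both the surfaces were apart. Of Ifi44l per Ifi44 the ratios were 0.191, 0.144 and 0.137 on THCaP and 0.243, 0.203 and 0.207 on TH. Counts of Oas2 per count of Oas1g were 2.37, 2.04 and 3.20 on THCaP and 3.44, 4.04 and 3.74 on TH. Counts of Phf11d per count of Phf11b were 2.75, 2.83 and 4.51 on THCaP and 4.92, 6.44 and 6.21 on TH. With Ifnar1 per Ifnar2, given above, 8 of the 9 ratios were lower in every THCaP library than in every TH library. Except for Ifi44l and Ifi44, each pair set a gene that fell over one that did not pass. Lower ratios on THCaP were thus built into the choice, and their number supports no conclusion. Nor does a ratio of counts show that one gene of a pair did not change.

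The other genes of the pathway were followed in a list of 65 chosen by function, of which 46 were tested. This list too was chosen with earlier results of these data known, so its shares are descriptions. Of these, 11 fell, 2 rose and 33 did not pass, a share of 23.9% lower against 12.0% of all tested genes, with a median log2 fold change of −0.14. Genes for other type I and type III interferons had 3 rows (Ifnab, Ifnl2 and Ifnl3) with a single count among them, in TH replicate 3. Among 22 genes that lead from LPS or nucleic acid sensing to IRF3 and NF-κB, 4 fell and 2 rose. The share lower was 18.2%, against 12.0% of all tested genes lower and 11.6% higher. Irf7, the transcription factor that amplifies interferon production and is itself interferon-induced, had 23.8, 28.9 and 23.9 CPM in the THCaP libraries, against 70.6, 85.9 and 61.8 CPM in the TH libraries. Its surfaces were far apart (log2 fold change −1.51, SE 0.13, adjusted p = 0.000735 by edgeR). Ikbke, the IRF kinase IKKε, had 32.4, 32.9 and 30.2 CPM in the THCaP libraries, against 50.3, 60.2 and 57.0 CPM in the TH libraries (log2 fold change −0.81, SE 0.09, adjusted p = 0.00195 by edgeR). Ticam1, which encodes the adaptor TRIF, had 40.4, 38.6 and 47.0 CPM in the THCaP libraries, against 58.3, 63.6 and 64.3 CPM in the TH libraries (log2 fold change −0.56, SE 0.10, adjusted p = 0.00691 by edgeR). No values of Irf7, Ikbke or Ticam1 overlapped between the surfaces.

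The induction arm also held genes that did not pass, the 2 that rose and a smaller decrease. Tlr4, the LPS receptor, had 46.5, 41.4 and 45.7 CPM on THCaP and 46.1, 51.3 and 49.8 CPM on TH (log2 fold change −0.14, SE 0.09, adjusted p = 0.254 by edgeR). Irf3, the factor that first induces interferon beta, had 30.9, 34.9 and 29.3 CPM on THCaP and 30.4, 27.2 and 24.1 CPM on TH (log2 fold change 0.22, SE 0.11, adjusted p = 0.174 by edgeR, 95% interval −0.03 to 0.47). Tlr7, the endosomal receptor of single-stranded RNA, rose, with 109, 108 and 98.0 CPM on THCaP and 89.9, 75.2 and 74.0 CPM on TH (log2 fold change 0.40, SE 0.10, adjusted p = 0.0197 by edgeR; 0.0880, 0.0921 and 0.0854 without TH replicates 2 and 3 and THCaP replicate 1). The other gene that rose was Sting1, the adaptor of cytosolic DNA sensing (log2 fold change 0.35, edgeR adjusted p = 0.0416), whose call was lost when any of 4 libraries was left out. The remaining gene that fell was Tank, a scaffold of the IRF kinases (log2 fold change −0.38, edgeR adjusted p = 0.0178), whose call was lost without any of 3 libraries.

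All 9 genes of receptor signalling had log2 fold changes below 0, and 5 of them fell (55.6%, against 12.0% of all tested genes). Irf9, the DNA-binding subunit of ISGF3, had 46.5, 42.3 and 47.4 CPM in the THCaP libraries, against 71.6, 72.2 and 62.6 CPM in the TH libraries. The surfaces were apart (log2 fold change −0.60, SE 0.09, adjusted p = 0.00454 by edgeR), and this was the gene of the 5 that fell under every alternative. Stat2, another subunit, had 44.3, 40.0 and 50.9 CPM on THCaP and 49.5, 59.2 and 52.9 CPM on TH with overlap and did not pass (log2 fold change −0.26, SE 0.11, adjusted p = 0.113 by edgeR), though it did without THCaP replicate 3 (adjusted p = 0.0225).

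Of the kinases, Tyk2 and Jak2 fell and Jak1 did not pass, and the differences between them were not tested. Tyk2 had 118, 108 and 146 CPM on THCaP and 162, 176 and 174 CPM on TH (log2 fold change −0.46, SE 0.11, adjusted p = 0.0194 by edgeR), Jak1 had 182, 179 and 179 CPM on THCaP and 182, 198 and 204 CPM on TH (log2 fold change −0.11, SE 0.08, adjusted p = 0.296 by edgeR) and Jak2, a kinase of the interferon gamma receptor, had 65.8, 59.3 and 64.4 CPM on THCaP and 71.6, 86.5 and 88.7 CPM on TH (log2 fold change −0.38, SE 0.10, adjusted p = 0.0242 by edgeR). Removing TH replicate 2, TH replicate 3 or THCaP replicate 1 in turn left Tyk2 short of the call (adjusted p = 0.0752, 0.0752 and 0.0834) and did the same to Jak2 (0.0955, 0.105 and 0.0718). Ifngr2, a chain of the interferon gamma receptor, had 65.7, 65.4 and 63.7 CPM on THCaP and 85.7, 82.2 and 83.5 CPM on TH (log2 fold change −0.37, SE 0.07, adjusted p = 0.00951 by edgeR, and 0.0547 without THCaP replicate 1). Among 8 inhibitors 1 fell (12.5%, near the 12.0% of all tested genes), which was Pias4, a SUMO ligase of the nucleus (log2 fold change −0.37, SE 0.11, edgeR adjusted p = 0.0357, lost under 5 alternatives). Socs1, the inhibitor of JAK kinases, had 1.12, 1.07 and 1.57 CPM on THCaP and 2.27, 1.80 and 1.54 CPM on TH (log2 fold change −0.58, SE 0.27, adjusted p = 0.138 by edgeR, 95% interval −1.18 to 0.018). Among 7 other interferon regulatory factors and their cofactors 1 fell (14.3%, again near that share), the corepressor Irf2bp2 (log2 fold change −0.41, SE 0.10, edgeR adjusted p = 0.0238), which missed the threshold once TH replicate 1, TH replicate 3 or THCaP replicate 1 was removed (adjusted p = 0.0553, 0.0956 and 0.0925).

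**Figure D4:**
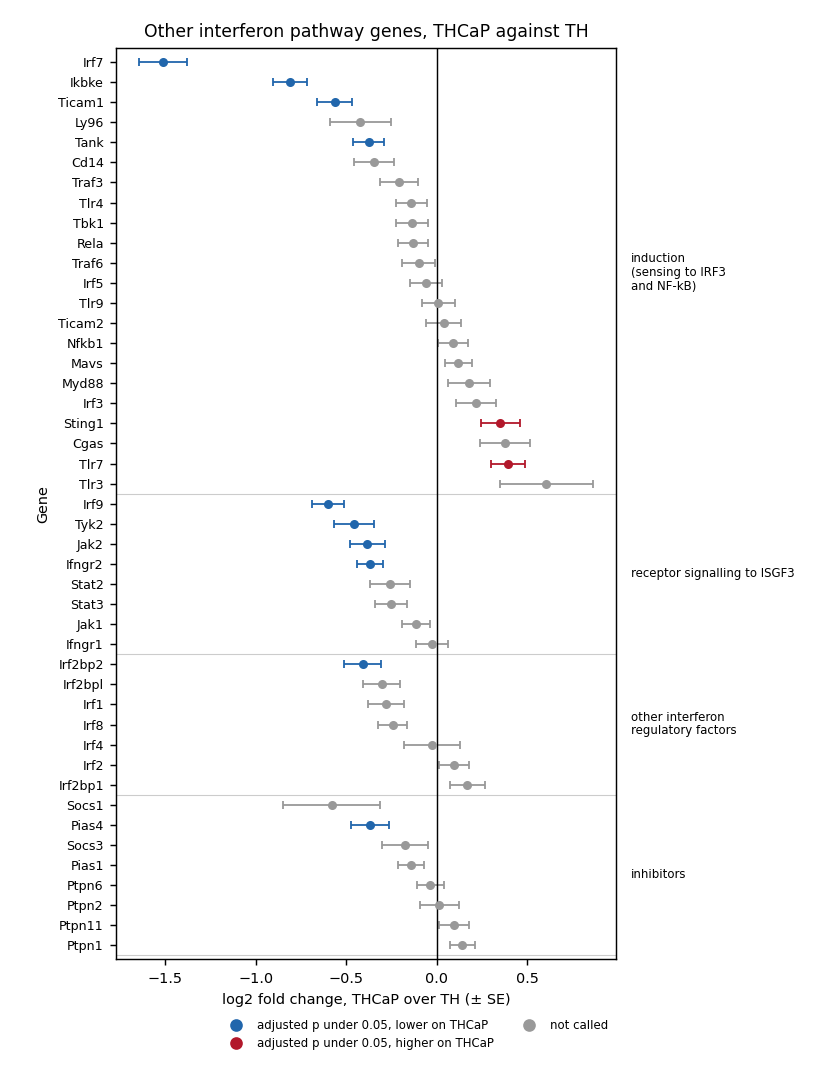
Log2 fold change (THCaP over TH, x axis) with bars of ± 1 SE for tested genes of the interferon pathway outside the member list, grouped by step. Irf7 lies farthest left at −1.51, the genes of receptor signalling drawn all lie below 0, and Tlr7 and Sting1 are the genes that rose.

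The promoter motif and the change on THCaP were set side by side. Of 18 tested members whose window held the ISRE core, 12 fell and 6 did not pass, with a median log2 fold change of −0.53. Of 24 with a window and no core, 11 fell and 13 did not pass, with a median of −0.28. The 12 members without a window, of which 8 fell, had a median of −0.61. Members without the core in the window included Ifi44l, Ifi44, Isg20 and Oasl1, and members with it that did not pass included Ifit1, Trim21 and Oas1g, so each class held both outcomes. Outside the list, 326 tested genes had the core, of which 17.2% were lower. Of the 8886 tested genes with a window and no core, members included, 11.7% were lower. Absence of a match says only that these letters are not in the window.

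**Figure D5:**
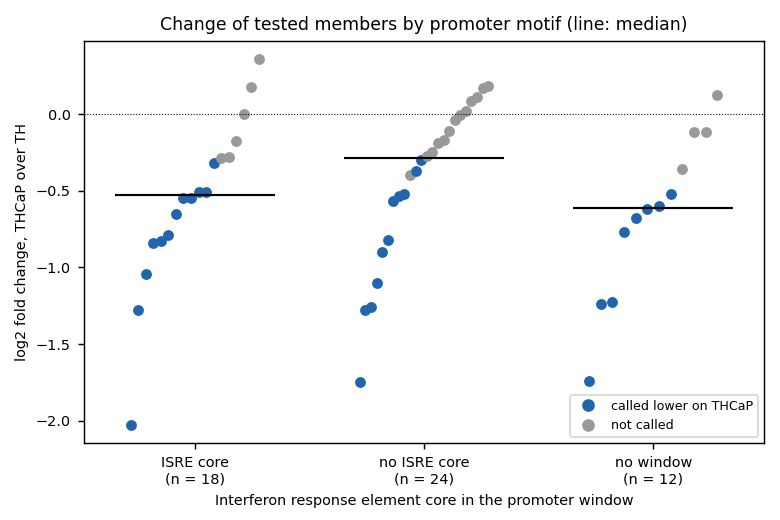
Log2 fold change (THCaP over TH, y axis) of the tested members by whether their promoter window held the ISRE core, held none or was not in the promoter table, 1 point per gene with the class median as a line. The medians are −0.53 for 18 members with the core, −0.28 for 24 without and −0.61 for 12 with no window, and the 3 classes overlap widely.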

How the data were processed

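RNA of 6 samples was extracted with TRIzol and sequenced from VAHTS Universal V6 libraries, per the labels' protocols. The authors deposited read counts per gene symbol, whole numbers with no normalisation, and FPKM values scaled by gene length and library total. Reads were handled with HTSeq, HISAT2 and fastp against build mm10 (per the submitters' processing notes), the assembly GRCm38. Tool versions, annotation and strand setting: not given in the sources used here. Beside the overlaps named in the text, annotated exons of Ifnar2, Dhx58, Eif2ak2, Adar, Oasl1, Ifitm2, Rtp4, Ms4a4c, Usp18, Herc6, Trim14, Parp14, Sp100, Sp110, Ifi35 and Ifi30 overlap another gene, so reads there may belong to it.

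Members and lists were chosen with earlier results of these data known. The fit used edgeR 4.0.16 in R 4.3.3 on the deposited counts. After filterByExpr (minimum count 10, minimum total 15, here 0.348 CPM in at least 3 libraries) and TMM scaling, THCaP was compared with TH by the robust quasi-likelihood F test, with no covariate. SE is the absolute log2 fold change over the square root of F, and intervals use the fit's degrees of freedom. Whether the samples of a surface are separate cultures is not stated, so p-values measure only the spread between these samples. A single value compared between 3 and 3 libraries cannot go below an exact permutation p of 0.1. Replicates differed beyond counting noise (chi-square per degree of freedom 3.84 to 48.4) and were each counted.

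Values per library are given, within each role, for up to 4 members with the largest change, the member with the highest FPKM, and listed paralogs. Of the pathway, 10 genes were named in every case with up to 4 called genes a list, and Sting1 and Tank after their values were seen. A pathway gene is not reported here. Promoter windows came from RefSeq (GRCm38.p6), where 46 members matched by symbol, and positions from GENCODE vM21. Alternatives were DESeq2 1.42.0, limma-voom (limma 3.58.1), RLE factors, library totals, no filter, a filter of 5 CPM in 3 libraries, a replicate block, and the omission of single libraries.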

Additional observations from a re-analysis of the deposited data

How the results depend on the processing

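Over all 13 alternatives no member rose and the median log2 fold change of tested members stayed between −0.53 and −0.40, the nearest to 0 coming without TH replicate 2. Members lower numbered 28 with library totals, which shifted the median of all genes to 0.059, 30 with the 5 CPM filter, where Zbp1 was not tested, 32 with DESeq2 and 31 with the other complete fits. Leaving out 1 library gave 756 to 4165 genes called, against 2709 with all 6, and 22 to 31 members lower. Pathway genes lower numbered 4 to 18 and pathway genes higher 0 to 4 when 1 library was left out. The replicate numbers did not pair the samples (correlations of same-numbered deviations −0.020, −0.072 and 0.060), and the fit with the replicate block called 2881 genes with 31 members lower. Members near 0 that did not pass changed sign. Oas1g was at −0.0022 with RLE factors, −0.0088 with the 5 CPM filter, −0.0073 with the block, −0.010 with voom, −0.0021 with DESeq2 and −0.16 to 0.16 with 1 library left out. Herc6 was at 0.013 and Parp12 at 0.043 with library totals. With 1 library left out, Ifnar2 ran from −0.0067 to 0.038, Samd9l from −0.054 to 0.23, Herc6 from −0.17 to 0.088 and Parp12 from −0.046 to 0.016. The cause of these shifts was not tested. Depth limits Ifnb1, Ms4a4c, Ifit3 and Ifit3b, which were too low to test, and Zbp1 and Ifit1, which rest on under 33 counts a library.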

Other observations

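Relatives of the members, chosen by family with earlier results of these data known and not counted among them, were read in the same fit. Of 71 listed, 62 had a row and 39 were tested, of which 12 fell on THCaP, 1 rose and 26 did not pass, with a median log2 fold change of −0.16. The share that fell was 30.8%, against 12.0% of all tested genes lower and 11.6% higher. Of the 12, 5 fell under every alternative tried and 7 lost their call under at least 1. The relatives that fell included 4 PYHIN genes, of which Aim2, the receptor that assembles an inflammasome on cytosolic DNA, was the most counted with 179, 151 and 199.8 CPM in the THCaP libraries, against 269, 275 and 290.0 CPM in the TH libraries (log2 fold change −0.65, SE 0.10, adjusted p = 0.00564 by edgeR). Ifi202b, a PYHIN protein without a pyrin domain, averaged 10.9 ± 0.563 CPM on THCaP and 19.8 ± 3.08 CPM on TH (log2 fold change −0.86, SE 0.13, adjusted p = 0.00488 by edgeR), and Mndal 58.4 ± 3.84 CPM on THCaP and 79.5 ± 10.7 CPM on TH (log2 fold change −0.45, SE 0.11, adjusted p = 0.0197 by edgeR), which missed the threshold once TH replicate 2 (adjusted p = 0.0833) or THCaP replicate 1 (0.0642) was removed. Aim2 and Ifi202b fell under every alternative tried, and exons of Mndal overlap those of the member Ifi203.

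Ifi27l2a, a paralog of Ifi27, had 55.6, 53.4 and 61.4 CPM in the THCaP libraries, against 109, 117 and 94.7 CPM in the TH libraries. The surfaces were apart (log2 fold change −0.92, SE 0.10, adjusted p = 0.00166 by edgeR). Ube2l6, the enzyme that passes ISG15 to its ligases, had 36.2, 32.9 and 36.8 CPM in the THCaP libraries, against 57.2, 54.2 and 48.4 CPM in the TH libraries (log2 fold change −0.59, SE 0.09, adjusted p = 0.00548 by edgeR), and Sp140, a nuclear body protein related to Sp100 and Sp110, averaged 68.1 ± 2.53 CPM on THCaP and 94.2 ± 1.16 CPM on TH (log2 fold change −0.47, SE 0.07, adjusted p = 0.00488 by edgeR). The relative that rose was Ms4a6d, of the family of Ms4a4c, with 1.86, 2.94 and 1.98 CPM in the THCaP libraries, against 1.00, 1.01 and 1.00 CPM in the TH libraries (log2 fold change 1.17, SE 0.26, adjusted p = 0.0161 by edgeR), a gene named after its value was seen and whose call was lost without TH replicate 2 or TH replicate 3.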
